A study of Homo sapiens with 9 samples.

Results

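Carbonic anhydrases and the bicarbonate transporter SLC4A7 were followed as 8 transcripts in A498, a human cell line derived from clear cell renal cell carcinoma (ccRCC). The genes were chosen by name, as the members of this family of pH regulators in a fixed list (CA2, CA5B, CA8, CA9, CA11, CA12, CA13 and SLC4A7), out of 27671 genes in the count table. Of the 8, 7 had enough reads to be tested, among 15551 tested genes, and CA8 had not. Cells of all 3 groups were infected with a lentivirus and kept under puromycin. The virus encoded a short hairpin RNA that targets BMAL1 in the group shBMAL1 and ARNT in the group shARNT, and a control hairpin in shControl. There were 3 biological replicates per group and 9 RNA-seq libraries in all. Both depletions were compared with the same 3 shControl libraries, and the contrast of shARNT with shBMAL1 used none of them. Each depletion rested on a single shRNA in a single line, so an effect of the hairpin and an effect of its target cannot be told apart. The study asked how ARNT, the classical partner of hypoxia-inducible factor 2α (HIF2α), and BMAL1, which pairs with CLOCK to drive circadian transcription, each contribute to HIF2α-driven expression.

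Carbonic anhydrases are zinc enzymes that interconvert carbon dioxide and water with bicarbonate and protons. CA9 and CA12 are anchored in the plasma membrane with the active site facing outward, CA2 and CA13 work in the cytosol, and CA5B works in the mitochondrion. CA8 and CA11 are carbonic anhydrase-related proteins that lack the catalytic activity. SLC4A7 (NBCn1) carries sodium and bicarbonate together into the cell, so it is a cotransporter rather than an exchanger. In ccRCC, loss of the VHL protein stabilizes HIF2α, and CA9 is a known HIF target and a diagnostic marker of this tumor.

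The promoter windows of CA9 and CA12 are shown because these membrane-bound enzymes had the lowest level in shARNT relative to shControl among the 7 tested members. The windows came from RefSeq (GRCh38.p14), ran from 250 bases before to 50 bases after a transcript start, and are written 5′ to 3′ on the strand of the gene. Capitals mark ACGTG or GCGTG, the core letters of hypoxia response elements, searched on both strands, so that a match on the opposite strand reads as CACGT or CACGC. The CA9 window was chr9:35673678-35673977 on the plus strand, and the CA12 window was chr15:63381797-63382096 on the minus strand.
CA9: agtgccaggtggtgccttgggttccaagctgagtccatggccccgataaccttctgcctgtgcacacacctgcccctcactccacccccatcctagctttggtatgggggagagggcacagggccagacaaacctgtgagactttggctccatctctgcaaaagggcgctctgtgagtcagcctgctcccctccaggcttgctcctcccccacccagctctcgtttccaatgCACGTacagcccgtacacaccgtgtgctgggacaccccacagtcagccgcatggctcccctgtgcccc
CA12: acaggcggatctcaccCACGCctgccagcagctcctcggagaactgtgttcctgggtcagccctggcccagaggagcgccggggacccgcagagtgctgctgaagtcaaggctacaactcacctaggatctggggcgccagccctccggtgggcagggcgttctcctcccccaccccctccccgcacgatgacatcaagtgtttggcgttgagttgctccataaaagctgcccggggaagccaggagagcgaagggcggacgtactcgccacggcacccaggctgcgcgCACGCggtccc
The CA9 window held 1 match, to ACGTG on the opposite strand, at positions -18 to -14 from the start. The CA12 window held 2 matches to GCGTG on the opposite strand, at -234 to -230 and at 40 to 44. Windows were found for 4 of the 8 members. The CA5B window held 1 ACGTG and 6 GCGTG. Of the 2 windows of SLC4A7, chr3:27484335-27484634 held 3 GCGTG and chr3:27456729-27457028 held 0 matches. CA2, CA8, CA11 and CA13 had no entry. The E-box CACGTG, a longer motif that contains ACGTG on either strand, was in none of these windows. Among all 35116 promoter windows, 21.4% held ACGTG, 36.5% held GCGTG, 48.4% held at least 1 of them and 7.26% held CACGTG, so matches of this kind were common. A match is a string of letters and not a measured binding site.

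Library totals ranged from 35269851 to 36099075 counts. The unit of levels is CPM, counts of a gene per 1e6 counts of the library, with each library total multiplied by its TMM factor (trimmed mean of M values). The TMM factors stood apart by group, at 0.932 to 0.944 for shControl, 0.961 to 0.971 for shBMAL1 and 1.10 to 1.11 for shARNT, and without them the median gene shifted upward on the log2 scale by 0.24 in shARNT and by 0.05 in shBMAL1. The targeted transcripts were lower in their own depletion, with log2 fold changes of -2.41 for ARNT and -1.70 for ARNTL, the symbol listed for BMAL1 (adjusted p = 1.35e-17 and 1.94e-11). Unless an alternative is named beside it, an adjusted p of a gene came from the quasi-likelihood test of edgeR, adjusted by Benjamini-Hochberg. ARNT was also lower in shBMAL1 (-0.65, adjusted p = 1.55e-08), and EPAS1, which encodes HIF2α, was lower in shARNT (-2.22) and in shBMAL1 (-0.57). HIF1A, which encodes HIF1α, was higher in both (1.48 and 1.59), and ARNTL was higher in shARNT (0.55, adjusted p = 8.29e-06). The kidney carcinoma markers KRT8, KRT18 and PAX8 were present in all libraries, while NDUFA4L2 of the same list of 6 had 0 to 16 counts. The blood and endothelial list of 6 genes summed to 1786 to 1905 CPM over the shControl libraries, 1754 to 1865 over shBMAL1 and 136 to 148 over shARNT. Nearly all of that sum was CD68, which encodes a lysosomal glycoprotein, and 5 of the 6 genes, with CD3E and HBB at 0, had 20 counts or fewer in each library. The fibroblast list of 5 genes summed to 231 to 245, 34.2 to 37.3 and 40.7 to 50.7 CPM in the same order. Nearly all of that sum was COL1A1 (means of 237, 35.7 and 45.4 CPM). LUM was at 0, and COL1A2 and DCN had 0 to 10 counts per library. PDGFRB was weak and lower in both depletions, with 65, 82 and 71 counts in shControl, 17, 12 and 16 in shBMAL1 and 6, 7 and 7 in shARNT. The part of these markers in the results below was not tested. In bulk RNA, fewer expressing cells and less RNA per cell cannot be told apart.

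In shARNT, 6 of the 7 tested members fell and CA2 rose, while in shBMAL1 CA9, CA11, CA13 and SLC4A7 fell, CA2 and CA12 rose, and CA5B did not pass the test. Calls were made at an adjusted p under 0.1. So many genes changed that a call alone says little: 81.8% of all tested genes were called in shARNT (40.5% higher and 41.3% lower), 63.4% in shBMAL1 (31.9% higher and 31.5% lower) and 81.2% in the contrast of shARNT with shBMAL1 (40.1% higher and 41.1% lower). The groups did not overlap in CPM for 7 of 7 members in shARNT and in the direct contrast and for 6 of 7 in shBMAL1, against 79.8%, 79.6% and 62.2% of all tested genes. Sizes set the members apart from each other more than calls did. Against a median absolute log2 fold change over all tested genes of 0.66 in shARNT and 0.32 in shBMAL1, the members ranged from -6.17 to 1.72 and from -1.34 to 0.44.

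**Figure D1:**
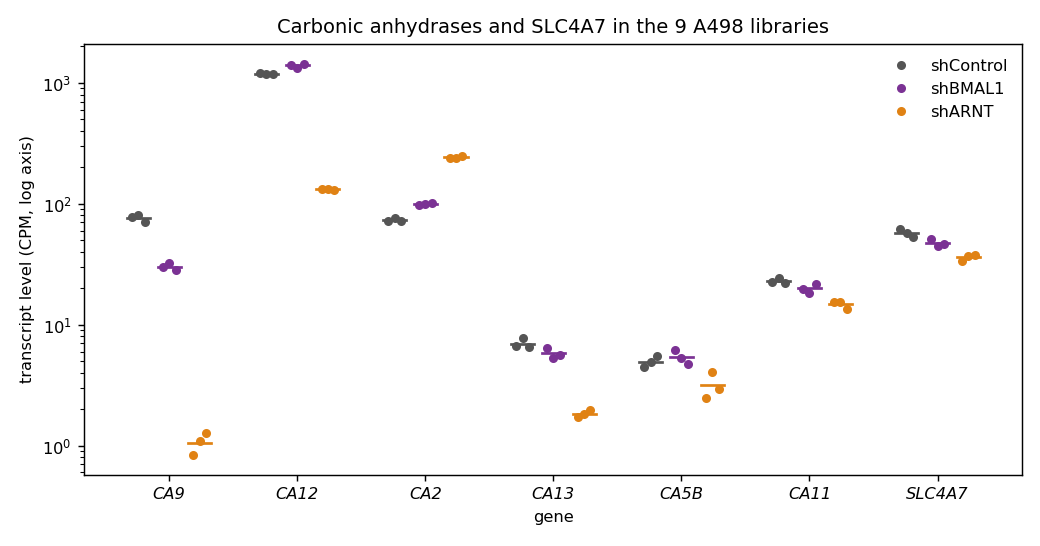
CPM of the 7 tested members in each of the 9 libraries, on a log axis, by group. Points are libraries and bars are group means: CA9 and CA12 sit lowest in shARNT, CA2 sits highest there, and CA5B overlaps between shControl and shBMAL1.

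CA9 encodes the membrane-anchored enzyme that is strongly tied to HIF activity in ccRCC (chromosome 9, 35673925 to 35681156, plus strand, GRCh37). It had 2592, 2640 and 2355 counts in the shControl libraries, 1020, 1109 and 972 in shBMAL1, and 33, 43 and 50 in shARNT. The groups did not overlap, and every shARNT library was far below every other library. The level was 76.4 ± 4.62 CPM (SD, n = 3) in shControl, 30.2 ± 1.83 CPM in shBMAL1 and 1.06 ± 0.215 CPM in shARNT, or 39.5% and 1.39% of control in the depleted groups. In shARNT the log2 fold change came to -6.17 (SE 0.103, adjusted p = 5.26e-21), a 71.9-fold lower level, and -1.34 (SE 0.0667, adjusted p = 1.26e-12) in shBMAL1, a 2.53-fold lower level. Only 0.193% of tested genes had a lower log2 fold change in shARNT, and 3.14% in shBMAL1. Set against shBMAL1 directly, shARNT gave -4.83 (SE 0.109, adjusted p = 4.92e-19), so the difference between the depletions was itself larger than the spread between replicates.

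The first 1939 bases of the CA9 locus overlap ARHGEF39, a gene on the opposite strand, and the deposited values of both genes were fractions of reads. Reads of the pair may therefore have been divided between them, and the use of strand in counting was not given in the sources used here. ARHGEF39 fell too, with mean levels of 50.3 ± 1.47, 33.9 ± 2.02 and 25.4 ± 0.32 CPM in shControl, shBMAL1 and shARNT. Log2 fold changes of -0.57 in shBMAL1 and -0.99 in shARNT were smaller than those of CA9. ARHGEF39 was named after its values were seen.

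CA12 encodes the other outward-facing enzyme of the plasma membrane (chromosome 15, 63613577 to 63674045, minus strand). Its level was 1211, 1172 and 1173 CPM in the shControl libraries, 1409, 1330 and 1443 CPM in shBMAL1, and 132, 132 and 130.5 CPM in shARNT. The shBMAL1 libraries were all above and the shARNT libraries all far below the shControl libraries. In shARNT, CA12 fell by 3.17 (log2) (SE 0.0386, adjusted p = 4.59e-23), to 11.1% of the control level. In shBMAL1 it rose by 0.23 (SE 0.0351, adjusted p = 9.90e-06), to 118% of the control level. This rise was small against the median absolute change of 0.32, and no call was made when a fold change of at least 1.5 was required. The direct contrast gave -3.41 (SE 0.039, adjusted p = 2.02e-23). CA9 and CA12 thus shared a direction in shARNT but not in shBMAL1, and the count ratio of CA12 to CA9 within a library was 15.5 ± 0.918 in shControl, 46.3 ± 4.65 in shBMAL1 and 128 ± 28.1 in shARNT.

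CA2, a fast and widely expressed cytosolic enzyme (chromosome 8, 86376197 to 86393722, plus strand), went the other way. It had 2416, 2501 and 2384 counts in shControl, 3361, 3458 and 3455 in shBMAL1, and 9498, 9506 and 9783 in shARNT. The 3 groups did not overlap, with shARNT highest and shControl lowest. The level was 73.6 ± 2.09, 100.1 ± 1.66 and 242 ± 3.73 CPM in this order. In shARNT the log2 fold change came to 1.72 (SE 0.0406, adjusted p = 1.09e-18), a 3.29-fold higher level, and 0.44 (SE 0.0409, adjusted p = 1.34e-08) in shBMAL1, a 1.36-fold higher level. The call in shBMAL1 was lost when a fold change of at least 1.5 was required. The depletions differed by 1.27 (SE 0.0397, adjusted p = 9.62e-17).

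CA13, a second cytosolic enzyme, lies near CA2 on the same chromosome (86132816 to 86196302, plus strand). It had 220, 254 and 217 counts in shControl, 218, 184 and 191 in shBMAL1, and 68, 72 and 78 in shARNT. The shARNT libraries stood clearly below the rest, while shControl and shBMAL1 were close, with the highest shBMAL1 library at 6.38 CPM and the lowest shControl library at 6.57 CPM. In shARNT, CA13 fell by 1.92 (log2) (SE 0.141, adjusted p = 1.09e-10), to 26.3% of the control level. In shBMAL1 the log2 fold change came to -0.27 (SE 0.126, adjusted p = 0.0747). That call was lost with DESeq2 (adjusted p = 0.141), with library size alone (0.141), without a filter on low counts (0.110), and without shControl replicate 2 (0.275), shBMAL1 replicate 2 (0.206) or shBMAL1 replicate 3 (0.157). The direct contrast gave -1.65 (SE 0.143, adjusted p = 1.48e-09). CA2 and CA13 moved in opposite directions in shARNT, and the count ratio of CA2 to CA13 within a library was 10.6 ± 0.657 in shControl, 17.4 ± 1.78 in shBMAL1 and 132 ± 7.13 in shARNT.

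CA5B encodes a mitochondrial enzyme (chromosome X, 15706953 to 15806534, plus strand) and was among the weakest members in counts. It had 148, 163 and 181 counts in shControl, 212, 184 and 162 in shBMAL1, and 99, 160 and 117 in shARNT. In CPM the shARNT libraries lay below all others, from 2.50 to 4.04, and the shControl (4.45 to 5.48) and shBMAL1 (4.76 to 6.20) libraries overlapped. The log2 fold change in shARNT was -0.65 (SE 0.168, adjusted p = 0.00164), and with library size alone it was -0.41 (adjusted p = 0.0311). In shBMAL1 it was 0.13 (SE 0.162, adjusted p = 0.508), with a 95% interval from -0.21 to 0.47, so changes within that interval were not resolved. The direct contrast gave -0.78 (SE 0.167, adjusted p = 0.000269). The gene overlaps CA5BP1, a pseudogene that is a close copy on the same strand and was not analysed here, so the values of CA5B are uncertain.

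The carbonic anhydrase-related genes differed in whether they were detected. CA8 (chromosome 8, 61097971 to 61193959, minus strand) had 1 count in shControl replicate 3 and 0 in the other 8 libraries. A count of 0 allows up to 3 counts, or 0.0831 to 0.0851 CPM per library, so CA8 was not detectable at this depth and was not tested. CA11 (chromosome 19, 49141203 to 49149444, minus strand) was detected in every library, at 22.7, 24.2 and 22.3 CPM in shControl, 19.7, 18.3 and 21.8 CPM in shBMAL1, and 15.4, 15.4 and 13.4 CPM in shARNT. The groups did not overlap, although the highest shBMAL1 library was close to the lowest shControl library. CA11 fell by 0.64 in shARNT (SE 0.0807, adjusted p = 3.89e-07), and by 0.41 with library size alone. In shBMAL1 it fell by 0.21 (SE 0.0797, adjusted p = 0.0302), and this call was lost without shControl replicate 2 (-0.17, adjusted p = 0.117) or shBMAL1 replicate 2 (-0.15, adjusted p = 0.151). The direct contrast gave -0.44 (SE 0.0813, adjusted p = 6.46e-05), or -0.24 with library size alone. CA11 overlaps the pseudogene SEC1P on the opposite strand, and CA2, CA13 and SLC4A7 overlap noncoding genes on the opposite strand.

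SLC4A7 (chromosome 3, 27414212 to 27525911, minus strand), the sodium bicarbonate cotransporter, fell in both depletions. The level was 61.3, 57.0 and 52.8 CPM in shControl, 51.4, 44.6 and 46.2 CPM in shBMAL1, and 33.9, 36.7 and 37.9 CPM in shARNT. The 3 groups did not overlap, and shBMAL1 lay between the others. In shARNT the log2 fold change came to -0.66 (SE 0.0664, adjusted p = 1.70e-08), or -0.42 with library size alone, and it came to -0.27 (SE 0.0658, adjusted p = 0.00171) in shBMAL1. The direct contrast gave -0.39 (SE 0.0668, adjusted p = 2.40e-05), or -0.20 with library size alone. In shARNT, CA5B, CA11 and SLC4A7 were left at 63.8%, 63.9% and 63.5% of control, close to the median absolute change of all genes. Their calls in shARNT were lost when a fold change of at least 1.5 was required, whereas those of CA9, CA12, CA13 and CA2 were kept, beside 44.8% of all tested genes. In shBMAL1 only CA9 among the members kept its call under that requirement, beside 13.6% of all tested genes.

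**Figure D2:**
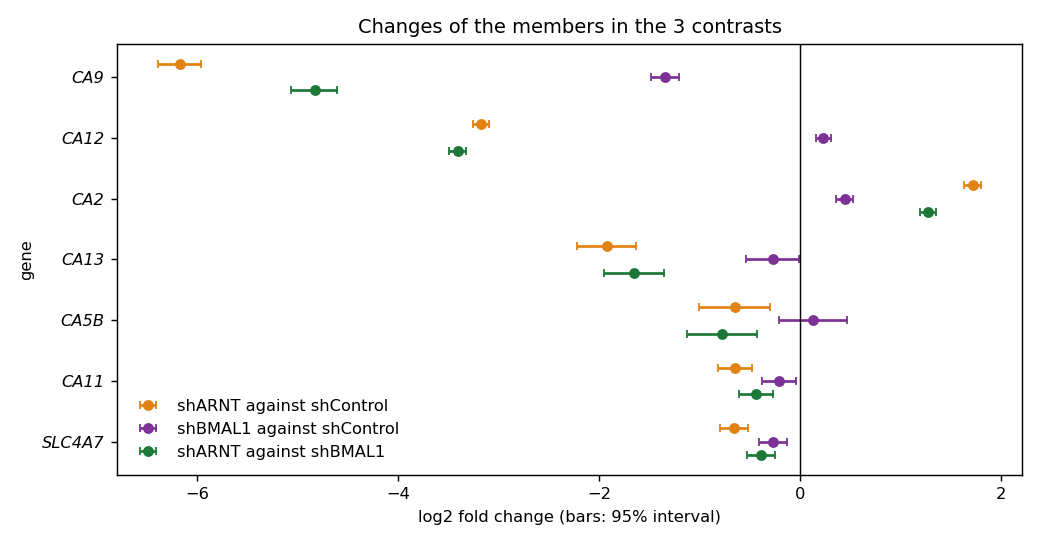
Log2 fold change of the 7 tested members in the 3 contrasts, with bars for the 95% interval. CA9 lies lowest in each contrast with shControl (-6.17 and -1.34), CA2 lies highest (1.72 and 0.44), and the interval of CA5B in shBMAL1 spans 0.

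Levels of different genes were compared per kilobase of exon (the union of all annotated exons). In shControl the order was CA12 (169 CPM per kb), CA9 (47.8 ± 2.89), CA2 (36.7 ± 1.04), CA11 (11.9), SLC4A7 (5.93), CA13 (1.24) and CA5B (0.582), and no neighbours in this order overlapped within 1 SD. With the longest coding transcript as the length, CA9 (49.4 ± 2.99 CPM per kb) and CA2 (47.1 ± 1.34) lay within 1 SD of each other. In shARNT the order was CA2 (120.7 CPM per kb), CA12 (18.8), CA11 (7.58), SLC4A7 (3.76), CA9 (0.663 ± 0.134), CA5B (0.371 ± 0.0933) and CA13 (0.328 ± 0.0223), and CA5B and CA13 did not differ beyond their spread. In shBMAL1, CA12 (199 CPM per kb) was followed by CA2 (49.9) and CA9 (18.9).

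The makeup of the carbonic anhydrase transcripts therefore differed between the groups. Over 15 carbonic anhydrase genes, CA12 held 63.1% ± 1.10 of the summed CPM per kb in shControl, 71.0% ± 0.945 in shBMAL1 and 12.6% ± 0.197 in shARNT. CA2 held 13.7% ± 0.350, 17.8% ± 0.537 and 81.2% ± 0.557. CA9 held 17.8% ± 0.764, 6.75% ± 0.608 and 0.446% ± 0.0868. The membrane-bound forms made up most of the sum in shControl and shBMAL1, and cytosolic CA2 made up most of it in shARNT, without overlap between shARNT and the other libraries. The sum itself was 268 ± 5.39 CPM per kb in shControl, 280.4 ± 8.05 in shBMAL1 and 149 ± 1.29 in shARNT. The count ratio of CA12 to CA2 within a library, which uses no scaling, was 16.1 ± 0.640 in shControl, 13.9 ± 0.591 in shBMAL1 and 0.543 ± 0.0121 in shARNT. These shares and ratios were chosen after the members' values were seen and are given without a test.

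**Figure D3:**
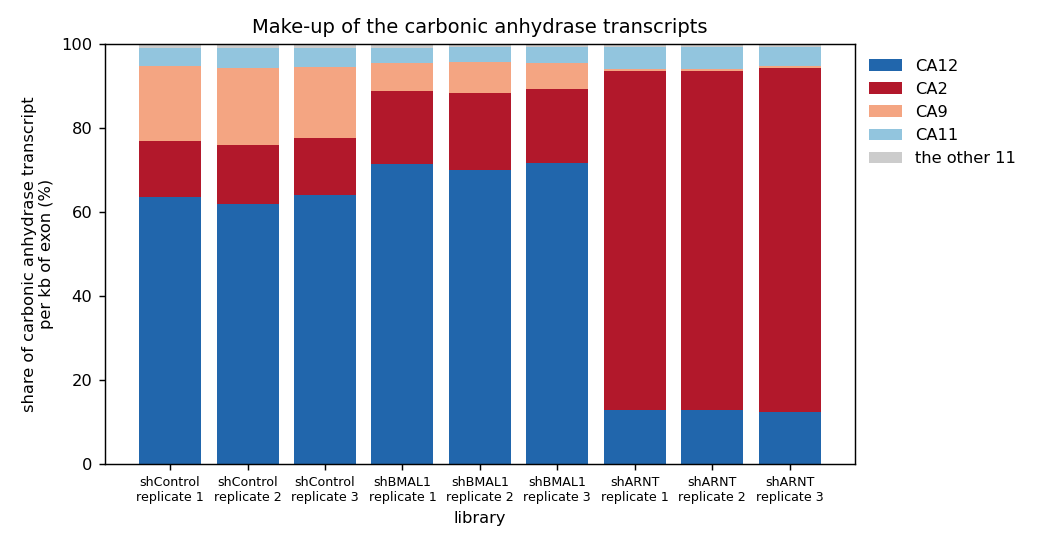
Share of the summed CPM per kb of 15 carbonic anhydrase genes held by each gene in each library, in percent. CA12 fills most of the bar in shControl and shBMAL1 (63.1% and 71.0% on average) and CA2 fills most of it in shARNT (81.2%).

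For each member, the gene with the most similar pattern was sought among 13432 genes, by the root mean square difference of log2 CPM centred on each gene's mean over the 9 libraries. CA9 was closest to SEMA5B (difference 0.285), PTPRN (0.348) and SERPINA1 (0.362), which were lower by -6.06, -5.61 and -5.78 in shARNT and by -1.18, -0.60 and -1.69 in shBMAL1 on the log2 scale. SERPINA1 encodes the secreted protease inhibitor alpha-1-antitrypsin. CA12 was closest to TGFBI (0.118), HPSE (0.125), which encodes heparanase, and ZBTB38 (0.127), with log2 fold changes from -3.33 to -2.93 in shARNT and from -0.01 to 0.36 in shBMAL1. CA2 was closest to MRPS15 (0.0402), a mitochondrial ribosomal protein gene, and CA13 to MYADM (0.0697). CA5B was closest to SCN2A (0.145), a sodium channel gene, CA11 to BCS1L (0.0419), and SLC4A7 to ATP2B1 (0.050), a plasma membrane calcium pump gene. The distances of CA9 were larger than those of the other members. The measure was not scaled to the size of a change, and the change of CA9 in shARNT was the largest among the members. CA9 had 33 to 50 counts per library there, and SEMA5B had a mean of 0.151 CPM. The distances therefore do not rank the members by how closely their patterns were matched.

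Other genes of pH regulation were taken from a list of 62, of which 45 were tested. In shARNT 26 rose, 13 fell and 6 did not pass the test, with a median log2 fold change of 0.38 beside -0.01 over all tested genes. In shBMAL1 18 rose, 19 fell and 8 did not pass, with a median of -0.14 beside -0.00. In the direct contrast 28 were higher in shARNT, 13 were lower and 4 did not pass, with a median of 0.45 beside -0.01. Over all tested genes, 81.8% were called in shARNT (40.5% higher and 41.3% lower) and 63.4% in shBMAL1 (31.9% and 31.5%). In the direct contrast 81.2% were called (40.1% and 41.1%). These shares are the background for the counts by class below as well, so a call alone says little here too. With library size alone the counts of higher and lower genes were 29 and 12 in shARNT and 18 and 18 in shBMAL1, and the split in shARNT went from 3 and 3 to 4 and 3 for the SLC4 genes, from 2 and 3 to 4 and 3 for the SLC9 genes and from 3 and 2 to 3 and 1 for the SLC26 genes described next. Genes named below that are outside the naming rule were named after their values were seen.

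The subunits of the V-ATPase, the pump that acidifies lysosomes and other compartments, made up most of the higher genes in shARNT. Of 22 subunit genes 18 were tested, and 16 rose and 2 fell in shARNT with a median of 1.04, while in shBMAL1 9 rose, 6 fell and 3 did not pass with a median of 0.14. ATP6V1A, the catalytic subunit, was at 54.1 ± 4.01 CPM in shControl, 30.8 ± 1.03 CPM in shBMAL1 and 180.7 ± 6.57 CPM in shARNT. It rose by 1.74 in shARNT (adjusted p = 6.96e-17) and fell by 0.81 in shBMAL1 (adjusted p = 2.26e-10). ATP6V0D1 had the same signs (1.08 and -0.63), whereas ATP6V1C1 (1.40 and 0.35) and ATP6V0A1 (1.18 and 0.62) rose in both. The subunits that fell in shARNT were ATP6V1E2 (-2.22, adjusted p = 8.53e-10) and ATP6V0A4 (-1.62), and neither passed in shBMAL1 (-0.15 and 0.13). ATP6V0D2, a subunit known from osteoclasts, had the highest log2 fold change of the whole list in shBMAL1 (3.79), from 1 to 4 counts per shControl library to 33 to 44 in shBMAL1 and 8 to 13 in shARNT.

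Among the other genes of the SLC4 family, 7 of 9 were tested, and SLC4A2, SLC4A8 and SLC4A11 rose in shARNT while SLC4A4, SLC4A5 and SLC4A10 fell. In shBMAL1 SLC4A2 rose and SLC4A3, SLC4A5, SLC4A8, SLC4A10 and SLC4A11 fell. Several of these falls rested on few reads. SLC4A5 had 44, 77 and 72 counts in shControl and 23, 11 and 3 in shBMAL1. SLC4A8 had 24, 24 and 25 against 7, 7 and 9, and SLC4A10 had 30, 31 and 30 against 13, 18 and 9. SLC4A4, an electrogenic sodium bicarbonate cotransporter of the kidney proximal tubule, was at 229 ± 16.0 CPM in shControl, 227 ± 16.8 CPM in shBMAL1 and 38.6 ± 3.03 CPM in shARNT. It fell by 2.57 in shARNT (adjusted p = 2.72e-18), and in shBMAL1 its log2 fold change was -0.01 with a 95% interval from -0.14 to 0.11 (adjusted p = 0.860). SLC4A11 was also weak, with 52, 79 and 69 counts in shControl, 28, 10 and 30 in shBMAL1 and 269, 229 and 224 in shARNT. It fell in shBMAL1 (-1.60, adjusted p = 5.92e-05) and rose in shARNT (1.59, adjusted p = 9.57e-07).

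Of the SLC9 sodium/proton exchangers, 7 of 9 were tested, and SLC9A3, SLC9A5 and SLC9A9 fell in shARNT. In shBMAL1 SLC9A7 and SLC9A9 rose and SLC9A3 and SLC9A8 fell. The fall of SLC9A8 was small (-0.14, adjusted p = 0.0647), and its shBMAL1 and shControl libraries overlapped in CPM. SLC9A9, an endosomal exchanger, moved in opposite directions, with 1.03 in shBMAL1 (adjusted p = 9.19e-09) and -0.97 in shARNT (adjusted p = 2.82e-08). SLC9A7, an exchanger of the Golgi, rose by 1.00 in shBMAL1 (adjusted p = 2.34e-07), and its value in shARNT was 0.11 (adjusted p = 0.375). That value was called in shARNT with library size alone (0.35, adjusted p = 0.0107) and without shControl replicate 1 (0.29, adjusted p = 0.0173). SLC9A3, part of whose values were fractions of reads, fell in shBMAL1 (-1.01) and shARNT (-0.74).

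Of the SLC26 anion exchangers, 6 of 8 were tested. SLC26A1, SLC26A2 and SLC26A11 were higher and SLC26A4 and SLC26A6 lower in shARNT. In shBMAL1 SLC26A1, SLC26A3 and SLC26A11 were higher and SLC26A2, SLC26A4 and SLC26A6 lower. The fall of SLC26A6 in shARNT was small (-0.26), and its libraries overlapped those of shControl in CPM. SLC26A3 was weak, with 9, 5 and 11 counts in shControl and 19, 16 and 21 in shBMAL1. SLC26A4 (pendrin), a chloride and bicarbonate exchanger, had 258, 196 and 216 counts in shControl, 136, 142 and 145 in shBMAL1, and 28, 16 and 23 in shARNT. It fell by 3.57 in shARNT (adjusted p = 7.92e-13) and by 0.71 in shBMAL1 (adjusted p = 0.000436). SLC26A2, a sulfate transporter, fell by 1.27 in shBMAL1 (adjusted p = 2.09e-07). It rose by 0.34 in shARNT (adjusted p = 0.0177), a call lost without shARNT replicate 3 (0.26, adjusted p = 0.101).

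Monocarboxylate transporters carry lactate with a proton, and of 6 genes of this class with their chaperones 5 were tested. SLC16A3 and SLC16A7 (1.21) rose and SLC16A1 and BSG fell in shARNT, and in shBMAL1 SLC16A7 (0.40) and BSG rose and SLC16A1 and SLC16A3 fell. SLC16A1 (MCT1) fell by 1.60 in shARNT and 0.37 in shBMAL1 (adjusted p = 5.87e-18 and 1.56e-07). SLC16A3 (MCT4), which is known for lactate export from glycolytic cells, rose by 0.38 in shARNT and fell by 0.51 in shBMAL1 (adjusted p = 4.49e-08 and 1.59e-09). BSG (basigin), the chaperone of both, fell by 0.62 in shARNT (adjusted p = 5.21e-13) and rose by 0.09 in shBMAL1 (adjusted p = 0.0215), and the latter call was lost without shBMAL1 replicate 2 (0.06, adjusted p = 0.132). The count ratio of SLC16A3 to SLC16A1 within a library, chosen after the values were seen, was 2.96 ± 0.0715 in shControl, 2.68 ± 0.141 in shBMAL1 and 11.6 ± 0.195 in shARNT.

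**Figure D4:**
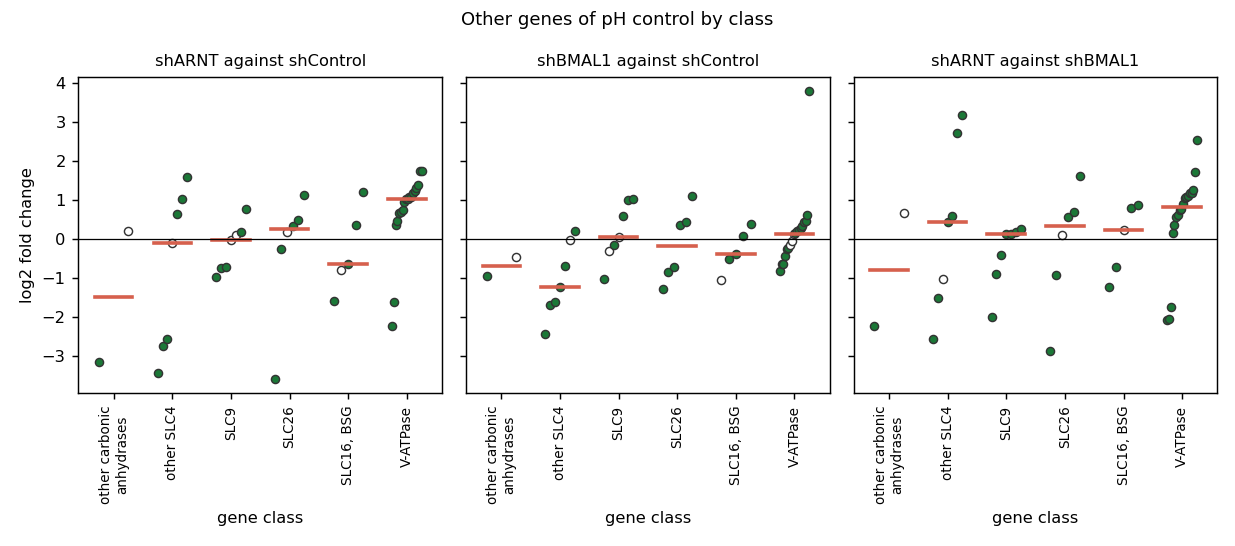
Log2 fold change of the tested genes of the pH list by class, in shARNT and in shBMAL1 against shControl and in shARNT against shBMAL1. Filled points passed the test, open points did not, and the red line is the median of the class: the V-ATPase median is 1.04 in shARNT and 0.14 in shBMAL1.

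Of the 8 carbonic anhydrases outside the 7 followed here, only CA3 and CA14 had enough reads to be tested, and both were named after their values were seen. CA3, a cytosolic enzyme of low activity, had 40, 45 and 37 counts in shControl, 23, 28 and 15 in shBMAL1, and 5, 4 and 7 in shARNT. It fell by 3.16 in shARNT (adjusted p = 3.37e-07) and by 0.93 in shBMAL1 (adjusted p = 0.0158). CA14, a membrane-bound enzyme, had 9 to 29 counts per library and passed no test with TMM scaling. With library size alone, 1 of the 2 genes CA3 and CA14 was called higher and 1 lower in the direct contrast. CA3 lies between CA13 and CA2 on chromosome 8, so genes close to each other there moved in opposite directions in shARNT.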

How the data were processed

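RNA was measured by stranded, paired-end mRNA sequencing in 9 libraries of A498 cells, with 3 biological replicates of shControl, shBMAL1 and shARNT. Per the study's methods, the authors used SeqMan NGen 17 for alignment to GRCh37 and ArrayStar 17 to count reads per gene. The submitters' processing notes also list hg38, STAR and DESeq2 without a role. The deposited values were expected counts, that is, reads per gene on a linear scale before any normalization, and a value of 0.05 stood for no reads and was set to 0. Whether reads or pairs were counted, and the use of strand and of multiply aligned reads, were not given in the sources used here. Values were rounded, and rows of 45 repeated names were summed, leaving 27671 genes, with 28 rows named by a date kept as they were. No sample column was left out.

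Group was the only factor in an edgeR 4.0.16 quasi-likelihood fit (R 4.3.3, limma 3.58.1) of all 9 libraries with TMM scaling and filterByExpr. P-values were adjusted by the Benjamini-Hochberg method over 15551 genes and called under 0.1, the threshold of the study. The code was tested on simulated data. Replicates of a group differed by more than sampling noise, with a chi-square per gene of 2.81 to 3.77, and none were merged. An exact permutation test of 3 against 3 cannot go below 0.10. Gene positions and lengths came from GENCODE 44 lifted to GRCh37, and promoter windows from RefSeq on GRCh38.p14. Precision for single genes was limited by counts, which ranged from 33 for CA9 in shARNT to 49065 for CA12.

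The members and gene lists were chosen with earlier results of these data known. Named genes were all members, the check genes ARNT, ARNTL, EPAS1 and HIF1A, and SLC16A1, SLC16A3, BSG and SLC4A4. In each contrast the rule added the 3 largest rises and falls of the pH list among called genes, provided that mean log2 CPM was 0 or above and the groups did not overlap. It also added the closest pattern to each member, or the 3 closest for CA9 and CA12. Some genes of the list are not reported here. Other genes are marked as chosen after their values were seen. Alternatives were DESeq2 1.42.0, DESeq2 size factors, library size alone, no filter on low counts, only the 6 libraries compared, a replicate block, halved counts, a minimum fold of 1.5 (glmTreat), leaving out each library, and another transcript length.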

Additional observations from a re-analysis of the deposited data

How the results depend on the processing

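No member changed direction under any alternative tried. Requiring a fold of at least 1.5 reduced the genes called to 6966 in shARNT (3116 higher, 3850 lower), 2110 in shBMAL1 (1026 and 1084) and 6831 between the depletions (3017 and 3814). It reduced those of the pH list to 11 in shBMAL1 (3 higher, 8 lower) and the higher ones to 17 in the direct contrast. The log2 fold changes that lost their call under it were CA5B -0.65, CA11 -0.64 and SLC4A7 -0.66 in shARNT, CA2 0.44, CA11 -0.21, CA12 0.23, CA13 -0.27 and SLC4A7 -0.27 in shBMAL1, and CA11 -0.44 and SLC4A7 -0.39 in the direct contrast. CA13 in shBMAL1 also lost its call with DESeq2 (-0.28), library size alone (-0.22) and no filter (-0.27). Leaving out 1 library gave -0.34 to -0.19 for CA13 and -0.28 to -0.15 for CA11 in shBMAL1, and CA5B ranged from -0.86 to -0.50 in shARNT. Library size alone raised the share of calls that were higher from 49.6% to 60.5% in shARNT, from 50.3% to 55.8% in shBMAL1 and from 49.4% to 58.6% between the depletions. It turned HIF1A in the direct contrast from -0.11 to 0.081, and in shARNT it turned the median of the SLC4 genes from -0.10 to 0.14 and that of the SLC9 genes from -0.01 to 0.23. With the longest coding transcript, levels in shControl were 47.1 (CA2), 0.725 (CA5B), 13.4 (CA11), 194 (CA12), 1.79 (CA13) and 7.06 (SLC4A7) CPM per kb. The shares of summed carbonic anhydrase CPM per kb with that length, an alternative chosen after seeing the data, were 15.3%, 19.6% and 82.8% for CA2 in shControl, shBMAL1 and shARNT. Apart from the effect of construction (a stricter test, fewer libraries), the cause was not tested. The data gave no sign that the replicate numbers paired the libraries. Deviations of same-numbered libraries correlated at -0.12 to 0.17, and 1 of 9 pairs exceeded 0.1. For differently numbered libraries the range was -0.17 to 0.14, and 2 of 18 pairs exceeded 0.1. Correlations this weak cannot decide whether libraries were prepared in pairs. With the replicate number as a block, 12684 genes were called in shARNT, 9833 in shBMAL1 and 12591 between the depletions, and no member's call changed. CA5B, CA13 and, in shARNT, CA9 rested on the fewest reads.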
